A study of Mus musculus with 6 samples.

Results

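The comparison described here is between a high and a low induction of the reprogramming factors Oct4 (gene Pou5f1), Sox2, Klf4 and Myc in mouse small intestinal organoids. It takes the libraries labelled with 0.5 and 0.1 µg/ml doxycycline, 2 at each dose, which are 4 of the 6 libraries of the series. The other 2 libraries, from organoids labelled as control, are given as a reference. Organoids are epithelial cultures grown from crypts in a gel, here in the IntestiCult medium from mice 4 to 8 weeks old, and doxycycline was applied for 3 days. All 6 libraries are of the genotype Rosa26-rtTA Tg/Tg and Col1A1-TetO-OSKM Tg/Tg, so the control organoids carry both transgenes too. The first drives the doxycycline-dependent activator rtTA from the broadly active Rosa26 locus, and the second places the 4 factors under a promoter that rtTA switches on. No group without the transgenes received doxycycline in these samples, so effects of doxycycline itself and of the factors cannot be told apart. The study used the doses to reach different levels of the factors. It calls the libraries biological replicates without saying whether they are separate mice, lines or cultures, so p-values measure only the spread between these libraries.

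Oct4 and Sox2 bind DNA together at the enhancers of pluripotency genes, Klf4 is a zinc-finger factor that the gut also makes in its differentiated cells, and Myc drives growth genes and is made in dividing crypt cells. Together they can return differentiated cells to pluripotency, passing through states in which the genes of the starting cell are shut down before the pluripotency network is on. The intestinal epithelium is renewed from Lgr5-positive stem cells at the crypt base, whose daughters become absorptive enterocytes or the secretory Paneth, goblet, enteroendocrine and tuft cells.

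Library totals, in units of 1e+06 expected counts, ran from 45.3 to 72.5, and 16975 genes passed the filter on low counts. Values are given as CPM, the expected counts per 1e+06 of the library total after TMM scaling, first for replicates 1 and 2 at 0.1 µg/ml and then for replicates 1 and 2 at 0.5 µg/ml. CPM is not divided by gene length, so it compares libraries and not genes. A call means an adjusted p under 0.05 in edgeR's quasi-likelihood test with Benjamini-Hochberg adjustment over the 16975 genes, and SE is the standard error of the log2 fold change. A gene silent in control could pass the filter only where doxycycline raised it, so counts over tested members of such lists describe them and are no support for a direction. On the first principal component of log2 CPM, which held 84.6% of the variance, the low-dose libraries lay between control and the high dose. The labels call the cells epithelial, and the adhesion molecule gene Epcam, which defines them, stood at 788 and 781 CPM in control, 702 and 695 at the low and 581 and 596 at the high dose. With bulk RNA, fewer cells of a type and less RNA per cell cannot be told apart.

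Raising the dose from 0.1 to 0.5 µg/ml changed 10002 of the tested genes (58.9%), mostly by small amounts. Of the tested genes 5060 (29.8%) were higher at 0.5 than at 0.1 µg/ml and 4942 (29.1%) were lower, with a median log2 fold change over all tested genes of -0.02 and a median change of 1.51-fold among those called. Counts of called list members below are to be read against these shares of 29.8% and 29.1%. At least 2-fold changes were called for 1801 genes (10.6%) upward and 1474 (8.68%) downward. The tail was longer upward: 829 genes rose and 194 fell at least 4-fold, 321 and 27 at least 8-fold, and 117 and 11 at least 16-fold. These counts have no floor on CPM and include genes with few counts at a dose. From a mean under 1 CPM at the low dose to at least 5 CPM at the high dose went 45 called genes, and 0 genes went the opposite way, called or not. The genes that rose at least 2-fold had a median of 0.221 CPM in control, 0.670 at the low and 3.05 at the high dose, and their share of the counts went from 2.08% in both low-dose libraries to 6.04% and 6.21%. The genes that fell at least 2-fold had medians of 4.46, 3.14 and 1.16 CPM, and their share went from 5.63% and 5.25% to 2.04% and 1.99%. The libraries of the doses did not overlap in 13695 genes (80.7%), so a lack of overlap sets no gene apart. It holds for every tested gene named below with both values per dose unless stated.

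**Figure D1:**
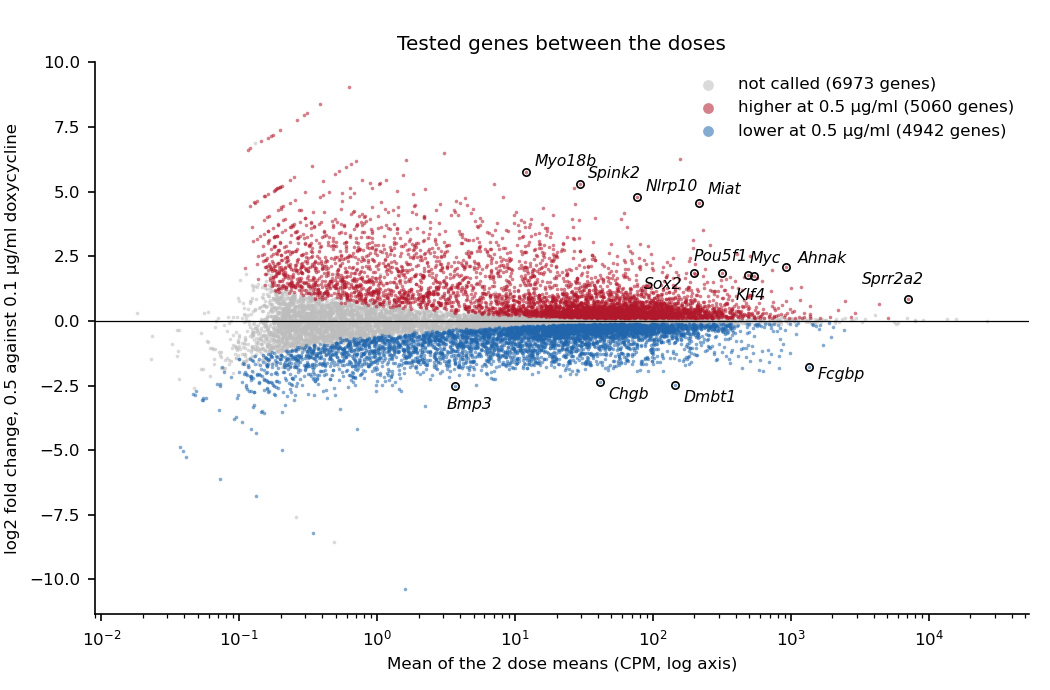
Each point is 1 of 16975 tested genes, placed by the mean of its dose means (CPM, log axis) and by its log2 fold change at 0.5 against 0.1 µg/ml doxycycline; red and blue points were called higher (5060) and lower (4942). Above a mean of 10 CPM rises reach further from 0 than falls, and the 4 factors (circled, with other named genes) lie at 1.74 to 1.87, below many red points. Points far from 0 at low CPM had few or no counts at one dose, and their fitted values are no measure of size.

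The 4 factors rose together, by 3.35 to 3.65-fold. Sox2 was at 83.3 and 86.3 CPM at 0.1 µg/ml and at 294 and 325 CPM at 0.5 µg/ml (log2 fold change 1.87, SE 0.08, edgeR adjusted p = 5.08e-08). Pou5f1 was at 136 and 141 and then 486 and 512 CPM (log2 fold change 1.85, SE 0.05, edgeR adjusted p = 7.34e-09). Both are nearly silent in the intestine, and the control libraries held 0.101 and 0.319 CPM of Sox2 and 0.243 and 0.140 CPM of Pou5f1. Klf4 went from 223 and 224 to 746 and 772 CPM (log2 fold change 1.76, SE 0.06, edgeR adjusted p = 1.99e-08), above 32.9 and 28.2 CPM in control. Myc went from 240.2 and 259 to 791 and 878 CPM (log2 fold change 1.74, SE 0.06, edgeR adjusted p = 1.85e-08), above 45.0 and 43.8 CPM in control. Differences among the 4 rises were not tested. Gene-level counts do not separate transgene transcripts from those of the endogenous genes. Larger rises than that of Sox2 were called for 919 other genes, and falls larger in size than the rise of Myc for 324. Neither count has a floor on CPM, and for genes with few counts at a dose the fitted fold is no measure of size.

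The largest rises were of genes with little or no expression in control organoids. They are given for called genes with a mean of at least 5 CPM at 1 of the doses, leaving out provisional symbols of the Gm and Rik series. The long non-coding RNA Miat stood at 17.1 and 17.9 CPM at the low dose and at 386 and 444 CPM at the high dose, 23.7-fold higher (log2 fold change 4.57, SE 0.11, edgeR adjusted p = 4.39e-09), against 3.65 and 5.29 CPM in control. Nlrp10, a member of the NOD-like receptor family without the usual sensing repeats, went from 5.59 and 5.18 to 137 and 160.0 CPM (log2 fold change 4.78, SE 0.09, edgeR adjusted p = 1.51e-09). Spink2, a serine protease inhibitor, went from 1.31 and 1.69 to 53.9 and 60.6 CPM (log2 fold change 5.28, SE 0.11). In these 3 genes the replicate values of a dose lie close together and far from those of the other dose. Cnfn, whose product cornifelin belongs to the cornified envelope of skin, was at 1.297 and 1.73 and then 57.7 and 46.3 CPM (log2 fold change 5.13, SE 0.15). Adgrb1, an adhesion receptor that recognises dying cells, was at 2.63 and 1.73 and then 47.7 and 56.0 CPM (log2 fold change 4.53, SE 0.15). Myo18b, an unconventional myosin of striated muscle, was at 0.345 and 0.571 and then 25.3 and 22.2 CPM (log2 fold change 5.75, SE 0.18) and had 0 counts in control. Vsig8, Ttc28, the G protein subunit gene Gng2 and the kallikrein protease gene Klk11 rose by log2 fold changes of 5.29, 4.81, 4.63 and 4.57, each to at least 6.71 CPM in both high-dose libraries. Gng2 alone among these stood higher in control (0.405 and 0.578 CPM) than at the low dose (0.248 and 0.347 CPM).

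AC151284.2 and AC151284.1, both annotated by GENCODE as processed pseudogenes, whose reads may come from a parent gene, complete the 12 largest rises. AC151284.2 had 0.110 and 0 CPM at the low dose, 8 counts in all, and 5.50 and 6.69 CPM at the high dose. Its log2 fold change of 6.50 (SE 0.47) was 11.22 without the first, which leaves 0 low-dose counts and a value that is no measure of size, and 5.76 without the second low-dose library, and that of AC151284.1, 4.75, was 5.66 without the first. A further one, the unprocessed pseudogene Gm29216, was outside the rule for named genes because of its provisional symbol and is named after its values were seen. It had 4.36 and 3.73 CPM at the low dose and 182 and 440.3 CPM at the high dose (log2 fold change 6.25, SE 0.62, edgeR adjusted p = 1.8e-05). The high-dose replicates of this gene differ from each other, as do its control libraries at 1.54 and 10.5 CPM.

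**Figure D2:**
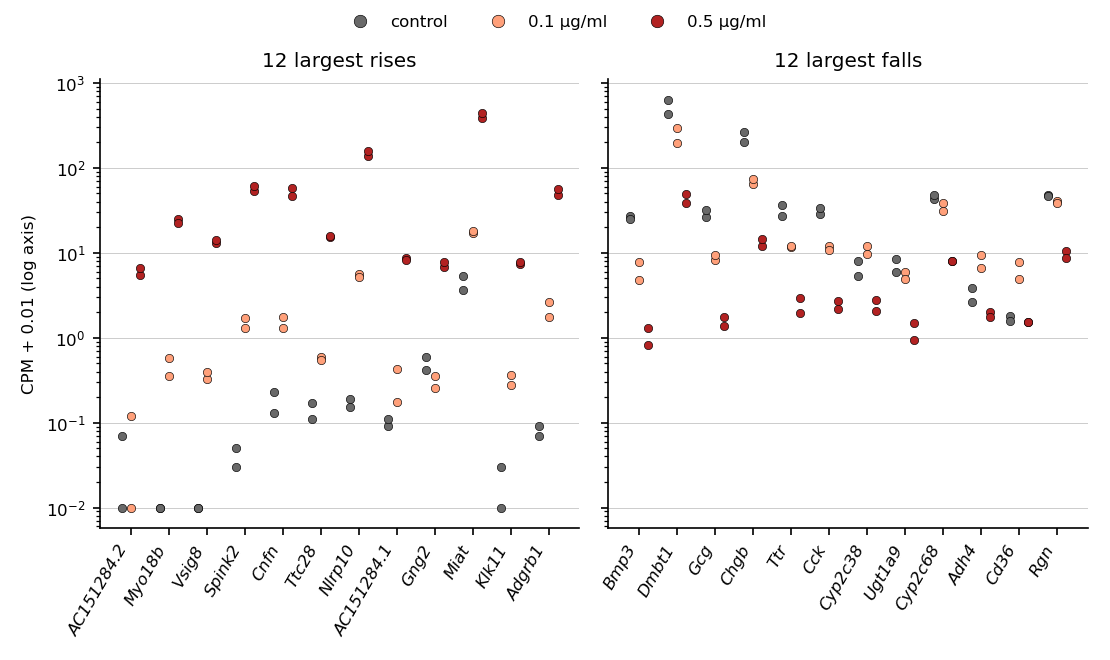
The 12 genes with the largest rises (left) and falls (right) between the doses; each point is 1 library, coloured by group, at its CPM plus 0.01 on a log axis, so a library with no counts sits at 0.01. On the left the red high-dose points lie at least 10-fold above the low-dose points, and on the right the falls are smaller, with control above both doses for Bmp3, Gcg and Chgb and below the low dose for Cd36 and Adh4.

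Promoter letters were looked for because the genes of largest change moved together with 4 DNA-binding factors. RefSeq promoter windows (build GRCm38.p6) of 300 bases, 250 before and 50 after the gene start, were at hand for 15 of the 24 genes with the largest rises and falls. The letters searched, on both strands, were the octamer ATGCAAAT, the Klf sequences GGGTGTGG and GGGCGTGG, the Sox letters CATTGT and ACAAAG and the E-box CACGTG read by Myc. The octamer or a Klf sequence stood in 4 of the 15 windows, of Cnfn, Gng2, Miat and Ugt1a9. The share of all windows with any of these was not counted, so the 4 are a description. Matches of the Sox letters and the E-box in the 15 windows are not given. Below are the 250 bases before the start of 2 genes with a large rise and of 1 with a large fall, with the matching letters in capitals.
Cnfn (chr7:25369725-25369974, minus strand, GGGTGTGG): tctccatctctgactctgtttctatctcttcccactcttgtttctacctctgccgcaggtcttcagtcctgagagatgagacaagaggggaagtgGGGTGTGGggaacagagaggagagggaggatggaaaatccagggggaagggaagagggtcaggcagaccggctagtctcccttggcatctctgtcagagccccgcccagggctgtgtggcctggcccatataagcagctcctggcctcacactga
Miat (chr5:112228949-112229198, minus strand, GGGCGTGG read on the other strand): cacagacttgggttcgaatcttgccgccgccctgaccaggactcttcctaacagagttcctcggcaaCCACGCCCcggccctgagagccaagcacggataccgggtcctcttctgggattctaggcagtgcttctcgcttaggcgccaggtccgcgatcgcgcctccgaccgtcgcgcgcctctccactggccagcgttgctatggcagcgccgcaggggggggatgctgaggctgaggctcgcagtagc
Ugt1a9 (chr1:88070529-88070778, plus strand, ATGCAAAT): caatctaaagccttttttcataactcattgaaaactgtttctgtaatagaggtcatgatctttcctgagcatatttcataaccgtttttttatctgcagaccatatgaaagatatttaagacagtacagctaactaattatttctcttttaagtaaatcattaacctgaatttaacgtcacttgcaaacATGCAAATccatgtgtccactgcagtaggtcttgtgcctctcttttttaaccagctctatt
The shares of windows with each motif were then counted over all tested genes. Of 11459 tested genes with a window, 1.501% held the octamer, against 1.85% of those called higher and 1.47% of those called lower; it was in 2.32% of those at least 2-fold higher and 2.29% of those at least 2-fold lower, which are 27 of 1162 and 23 of 1005 windows. GGGTGTGG stood in 4.05% of all windows, 4.17% of those higher and 4.16% of those lower, with 5.08% and 4.58% of those changed at least 2-fold up and down. GGGCGTGG stood in 9.63%, 9.97% and 9.99% of all, higher and lower genes. Among genes changed at least 2-fold, GGGCGTGG was less frequent in both directions, at 6.54% of those higher and 5.87% of those lower, and CACGTG likewise, at 6.28% and 7.66% against 9.88% of all. CATTGT stood in 7.57% of all windows and in 9.98% and 9.75% of those changed at least 2-fold up and down, and ACAAAG in 14.1%, 15.6% and 18.3%. A match is a run of letters in 1 window and not a binding site.

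Squamous genes, those of layered epithelia such as skin, mouth and forestomach, had the highest median among the lists of epithelial genes. Of 21 tested of 25 listed, 19 were higher and 1 lower, with a median log2 fold change of 2.71 against -0.02 over all tested genes. Krt13, a keratin of the layers above the basal one, was at 42.5 and 36.8 CPM at the low and 344 and 360.1 CPM at the high dose (log2 fold change 3.15, SE 0.07, edgeR adjusted p = 3e-09). The stress keratins Krt6a (2.01 and 2.43, then 28.3 and 30.4 CPM; log2 fold change 3.74) and Krt16 (1.79 and 1.41, then 21.9 and 27.5 CPM; log2 fold change 3.93) rose with it. Krt6b, whose sequence is nearly that of Krt6a, so that shared reads may be split between them, went from 0.359 and 0.326 to 6.62 and 7.12 CPM. Lgals7, a galectin of stratified epithelium, went from 1.297 and 1.69 to 33.5 and 27.3 CPM (log2 fold change 4.37, SE 0.15). Krt17 went from 0.0414 and 0.0408 CPM, 5 counts over both libraries, to 1.37 and 2.11 CPM. Of genes of the basal layer, Krt14, the keratin that pairs with Krt5, rose from 0.552 and 0.571 to 1.53 and 1.38 CPM (log2 fold change 1.37, SE 0.23), the desmosome gene Dsg3 from 2.17 and 1.90 to 6.14 and 7.10 CPM and Dsc3 from 0.0552 and 0.0815 to 0.344 and 0.537 CPM. Krt5, too low to be tested, had 16 counts over both libraries at the low and 5 at the high dose, and Trp63, the master regulator of that layer, had 0 and 1. Krt4, the usual partner of Krt13, was the member called lower, from 0.179 and 0.183 to 0.0458 and 0.0384 CPM, or 22 to 4 counts over the libraries of a dose. Its call was lost without the second high-dose library (edgeR adjusted p = 0.0759) and with DESeq2 (adjusted p = 0.0884).

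Gastric genes rose in part. Of 14 tested of 20 listed, 11 were higher and 3 lower (median log2 fold change 1.31), and the list includes Sox2, itself an induced factor. Muc5ac, the secreted mucin of the stomach surface, was at 0 and 0.0399 CPM in control, 19.99 and 19.1 CPM at the low and 100.3 and 80.4 CPM at the high dose (4.62-fold between the doses, edgeR adjusted p = 1.08e-07). Psca, a surface antigen of gastric epithelium, rose from 7.96 and 5.65 to 25.6 and 29.6 CPM (log2 fold change 2.005, SE 0.14). Tff1, the gastric trefoil peptide, rose from 20.0003 and 17.5 to 47.1 and 47.0 CPM, and Cldn18, a claudin of stomach and lung, from 12.7 and 10.5 to 31.1 and 36.1 CPM. The members called lower were Vsig1 (2.92 and 2.98, then 0.733 and 0.997 CPM), Capn9 (3.43 and 4.85, then 1.70 and 1.73 CPM) and Gkn3 (0.193 and 0.204, then 0.0687 and 0.0192 CPM). The call of Gkn3 was lost without the second high-dose library (edgeR adjusted p = 0.121) and with DESeq2 (adjusted p = 0.0698).

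Markers of tuft cells, the chemosensory cells of the epithelium, split. Of 15 tested of 26 listed, 10 were higher and 3 lower (median log2 fold change 1.504). Avil, an actin-binding protein of the tuft cell brush, was at 0.972 and 1.64 CPM in control, 141 and 141 CPM at the low and 395 and 405 CPM at the high dose (log2 fold change 1.504, SE 0.07, edgeR adjusted p = 1.23e-07). The signalling genes Vav1 (5.37 and 6.10, then 32.3 and 34.9 CPM; log2 fold change 2.56) and Plcg2 (22.4 and 22.5, then 83.5 and 85.7 CPM; log2 fold change 1.91) rose as well. Dclk1, the kinase most used to mark these cells, went from 0.662 and 0.815 to 5.75 and 5.58 CPM (log2 fold change 2.95, SE 0.20). Pou2f3, the factor that specifies the lineage, went from 4.55 and 5.67 to 10.3 and 8.82 CPM (log2 fold change 0.91, SE 0.14). Members of the sensory function did not move together, and Gng13, a G protein subunit gene, was among those called higher. The taste channel gene Trpm5 fell from 0.621 and 0.550 to 0.115 and 0.249 CPM (log2 fold change -1.64, and -2.34 without the second high-dose library). Chat had 0 counts at both doses, and Gnat3 and Il25 had at most 3 over the libraries of a dose. The other members called lower were Ltc4s and Il17rb. The edgeR adjusted p of Ltc4s went to 0.0978 without the first low-dose and 0.0795 without the first high-dose library, and that of Il17rb to 0.0506 without the second high-dose library.

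Genes that make, carry or break down prostaglandins rose more often than they fell, with 9 of 18 tested members higher and 4 lower (median log2 fold change 0.71). Both cyclooxygenases, which make the prostaglandin precursor, rose. Ptgs1 went from 46.0 and 41.7 to 226 and 249 CPM (5.40-fold, log2 fold change SE 0.07, edgeR adjusted p = 7.34e-09), with 0.324 and 0.219 CPM in control, and it is also a tuft cell marker. Ptgs2 went from 19.8 and 20.7 to 106 and 99.2 CPM (5.08-fold, log2 fold change SE 0.06, edgeR adjusted p = 7.11e-09). Pla2g4a, the phospholipase that frees their substrate, went from 5.59 and 7.30 to 14.4 and 14.7 CPM, and the prostaglandin transporter gene Slco2a1 from 30.5 and 27.0 to 93.8 and 99.3 CPM (log2 fold change 1.74). Control held 4.19 and 4.75 CPM of Slco2a1 but 14.1 and 11.7 CPM of Pla2g4a, which thus stood near its control level at the high dose. Hpgd, the enzyme that starts prostaglandin breakdown, fell from 20.7 and 17.9 to 7.58 and 7.404 CPM (log2 fold change -1.37, SE 0.09, edgeR adjusted p = 1.11e-06). The other members called lower were Cbr1 (-0.87) and Ptgr1 (-0.46), which reduce prostaglandins and related lipids, with log2 fold changes in brackets, and Ptges2, a synthase gene, at -0.15, whose call was lost without any 1 of the 4 doxycycline libraries (edgeR adjusted p from 0.0526 to 0.121).

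Genes that mark regenerating or fetal-like epithelium and the targets of YAP and TAZ, coactivators switched on in gut repair, moved both ways. Of 30 tested regeneration genes 13 rose and 7 fell (median 0.14), and of 20 YAP and TAZ targets 10 rose and 6 fell (median 0.43). Among the risers, Tm4sf1 was at 5.02 and 3.93 and then 28.0 and 27.6 CPM (log2 fold change 2.62, SE 0.11). Ly6a, the surface protein Sca-1 of repairing crypts, rose from 74.8 and 68.8 to 164 and 162 CPM, and the annexin gene Anxa1 from 70.5 and 66.2 to 217 and 209.5 CPM. Emp1, a membrane protein outside both lists that was among the 6 largest gains in CPM, rose from 308 and 292 to 1161 and 1163 CPM (log2 fold change 1.95, SE 0.04). Of the YAP and TAZ targets, Ccn2 rose from 6.21 and 6.08 to 33.8 and 34.3 CPM (log2 fold change 2.47, SE 0.10), the adenosine-producing enzyme gene Nt5e from 45.0 and 41.6 to 206 and 217 CPM, and the pathway's own kinase gene Lats2 from 5.79 and 5.50 to 16.5 and 18.9 CPM. Clu, a marker of stem cells that appear after injury, went the other way, from 72.4 and 55.6 to 25.3 and 29.1 CPM (log2 fold change -1.24, SE 0.12, edgeR adjusted p = 1.28e-05). Areg, an EGF receptor ligand of repair, fell from 84.8 and 88.4 to 65.8 and 67.9 CPM, and Il33 was at 1.34 and 1.12 and then 0.619 and 0.499 CPM (log2 fold change -1.15).

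The largest gains in CPM included genes of the cytoskeleton. Sprr2a2, a small proline-rich protein gene with near-identical copies, went from 5010.4 and 5012 to 8554 and 9674 CPM (log2 fold change 0.86, SE 0.10), so that its reads cannot be given to 1 copy with certainty. Actg1, a cytoplasmic actin, went from 3417 and 3300.4 to 5128 and 5442 CPM, and the keratin gene Krt8 from 1829.8 and 1822 to 3083 and 3121 CPM. Ahnak, a giant scaffold protein, went from 376 and 329 to 1449 and 1512 CPM (log2 fold change 2.07, SE 0.09), and Tmsb4x, the actin-binding thymosin, from 667 and 693 to 1709.5 and 1649 CPM. All 5 genes stood lower in control than at either dose. Ly6g6c, chosen after its values were seen, went from 0.648 and 0.738 CPM in control to 151 and 153 CPM at the low and 839 and 875 CPM at the high dose.

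Genes of absorptive enterocytes fell nearly throughout. Of 36 tested members 32 were lower, 24 of them at least 2-fold, and 2 higher, with a median log2 fold change of -1.28. Fabp2, the intestinal fatty acid binding protein, was at 297 and 224 CPM at the low and 76.1 and 81.6 CPM at the high dose (log2 fold change -1.72, SE 0.13, edgeR adjusted p = 2.76e-06). The brush border enzymes lactase (Lct; 27.8 and 15.8, then 6.39 and 7.77 CPM) and aminopeptidase A (Enpep; 67.5 and 52.96, then 18.7 and 19.3 CPM) fell by log2 fold changes of -1.63 and -1.67. Genes of fat export fell too, Apob from 983 and 790.4 to 311 and 305 CPM and Apoa1 from 111 and 76.6 to 27.8 and 38.4 CPM. The sucrase gene Sis went from 1341 and 997 to 536 and 524 CPM. The low dose was not a step on the way down for this list. At 0.1 µg/ml 25 members were called higher and 2 lower than control by the same edgeR test, against 20.8% and 13.8% of all tested genes, with a median log2 fold change of 0.39. Control held 193 and 238 CPM of Fabp2, 15.2 and 18.8 of Lct, 47.0 and 48.9 of Enpep and 649 and 762 of Sis. Cd36, a fatty acid transporter outside the list, shows the same order among the 12 largest falls, at 1.78 and 1.56 CPM in control, 7.82 and 4.95 at the low and 1.51 and 1.52 at the high dose. Adh4, an alcohol dehydrogenase, was at 2.65 and 3.87, 9.32 and 6.69 and 1.99 and 1.75 CPM in the same order. The comparison of the low dose with control and that of the doses share the low-dose libraries. The members called higher were Vil1, the villin of the brush border core (585 and 531, then 685 and 702 CPM), and the peptide transporter gene Slc15a1 (9.82 and 8.30, then 11.8 and 13.2 CPM). Without the second low-dose or the second high-dose library the edgeR adjusted p of Slc15a1 was 0.114 and 0.150, and without the first low-dose library 4 members were called higher.

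Transcription factors of intestinal identity fell as well, 21 of 27 lower and 5 higher (median log2 fold change -0.80). Cdx2, which sets hindgut against foregut identity, went from 139 and 138 to 59.98 and 57.1 CPM (log2 fold change -1.24, SE 0.04, edgeR adjusted p = 2.15e-08) and stood at 176 and 179 CPM in control. Its relative Cdx1 went from 127 and 137 to 53.1 and 48.2 CPM (log2 fold change -1.38, SE 0.06). Hnf4a and Hnf4g, the nuclear receptors that drive enterocyte genes, went from 679.6 and 691 to 365 and 344 CPM (log2 fold change -0.95) and from 105 and 87.6 to 36.04 and 31.6 CPM (log2 fold change -1.52). Vdr, the vitamin D receptor, fell from 263 and 259.8 to 107 and 97.9 CPM, and the xenobiotic receptor gene Nr1i3 from 23.3 and 16.6 to 5.96 and 6.21 CPM. Among the 12 largest falls were the drug-metabolising genes Cyp2c38, Cyp2c68 and Ugt1a9, with log2 fold changes of -2.20, -2.13 and -2.18; these have close relatives, and the Ugt1a genes share exons, so reads may be split among them. The members that rose were Klf4, an induced factor, Prdm1 (10.9 and 12.1, then 65.1 and 61.4 CPM; log2 fold change 2.46), a repressor of the suckling gut, and Klf3, Isx and Foxa1, with log2 fold changes of 0.94, 1.14 and 0.41.

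**Figure D3:**
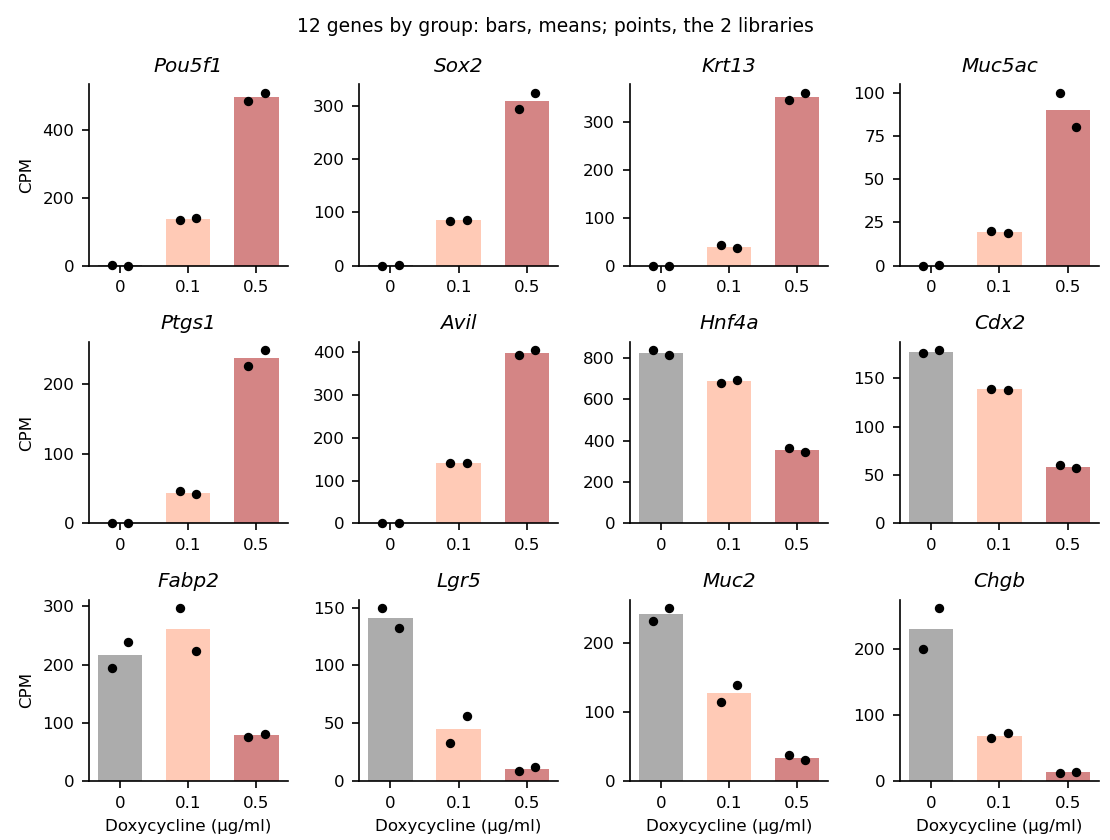
CPM of 12 genes without doxycycline (0) and at 0.1 and 0.5 µg/ml; bars are the means of 2 libraries, points the libraries, and each panel has its own axis from 0. Pou5f1, Sox2, Krt13, Muc5ac, Ptgs1 and Avil rise with each dose, Hnf4a, Cdx2, Lgr5, Muc2 and Chgb fall with each dose, and Fabp2 is lower at 0.5 µg/ml than in the other groups.

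Markers of the secretory lineages other than tuft cells fell. Of the enteroendocrine genes 28 of 33 were lower and 2 higher (median log2 fold change -1.65), of the goblet genes 18 of 22 lower and 2 higher (-1.37), and of the Paneth genes 16 of 19 lower and 0 higher (-1.37). The 0 was the count also at an unadjusted p under 0.05 and with DESeq2. The granule protein gene Chgb stood at 200.3 and 262 CPM in control, 64.98 and 73.3 at the low and 11.9 and 14.6 at the high dose (log2 fold change between the doses -2.37, SE 0.14, edgeR adjusted p = 4.89e-07). The hormone genes Gcg (8.29 and 9.42, then 1.37 and 1.75 CPM) and Cck (12.04 and 10.9, then 2.68 and 2.17 CPM) fell by log2 fold changes of -2.49 and -2.26. Tph1, the enzyme of gut serotonin synthesis, fell from 1.57 and 1.81 to 0.321 and 0.192 CPM (log2 fold change -2.73, SE 0.26), and Neurog3, which specifies the lineage, from 5.79 and 7.07 to 2.11 and 1.75 CPM. The enteroendocrine members called higher were Pcsk1n (0.497 and 0.347, then 1.86 and 2.07 CPM) and Scg5 (0.469 and 0.591, then 0.893 and 0.863 CPM). The call of Scg5 was lost with DESeq2 (adjusted p = 0.116) and without the first low-dose or either high-dose library. Control held 0.689 and 0.718 CPM of Pcsk1n and 1.62 and 2.01 CPM of Scg5, which thus stayed below control at both doses.

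Of the goblet genes, the gel mucin gene Muc2 went from 114 and 139 to 37.3 and 30.6 CPM (log2 fold change -1.90, SE 0.11, edgeR adjusted p = 3.98e-07). Fcgbp, a mucus protein with the largest loss in CPM of any gene, went from 1957 and 2239 to 620.5 and 613 CPM (log2 fold change -1.77, SE 0.07). Agr2, the isomerase that folds mucins, went from 67.3 and 73.3 to 20.1 and 19.7 CPM, and the trefoil gene Tff3 from 136 and 157 to 48.5 and 51.5 CPM. Atoh1, the factor that commits cells to the secretory fate, was at 1.21 and 1.57 and then 0.412 and 0.441 CPM (log2 fold change -1.68, SE 0.24). Bcas1 and Galnt12 were the goblet members called higher, with log2 fold changes of 1.38 and 0.54. Of the Paneth genes, lysozyme (Lyz1) went from 73.5 and 91.1 to 31.6 and 29.0 CPM (log2 fold change -1.44, SE 0.10), and the defensin gene Defa24, one of many near-identical copies, from 135 and 169 to 48.6 and 46.6 CPM. The antimicrobial lectin genes Reg3g and Reg3b fell by log2 fold changes of -1.85 and -2.27, the latter -2.94 without the second high-dose library. Dmbt1, a scavenger glycoprotein of mucus outside these lists, fell from 292 and 197 to 48.7 and 38.7 CPM (log2 fold change -2.49, SE 0.22), and Pigr, which carries antibodies across the epithelium, from 1079 and 991 to 355 and 334 CPM.

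Crypt base stem cell genes also went down, 17 of 24 lower and 3 higher (median log2 fold change -0.56). Lgr5, the R-spondin receptor that defines these cells, was at 149 and 133 CPM in control, 33.4 and 56.1 at the low and 9.003 and 12.2 at the high dose (log2 fold change between the doses -2.05, SE 0.23, edgeR adjusted p = 4.05e-05). The low-dose replicates of Lgr5 differ from each other more than the high-dose ones, but lie above both. Smoc2 fell from 66.3 and 93.9 to 21.8 and 22.8 CPM (log2 fold change -1.84, SE 0.15). Olfm4, a secreted protein of the same cells, was at 22.2 and 51.2 and then 9.37 and 10.99 CPM (log2 fold change -1.82, and -1.12 without the second low-dose library, which holds most of its low-dose level). The members that rose were Ascl2, a Wnt-driven stem cell factor (5.14 and 5.57, then 9.23 and 9.13 CPM; log2 fold change 0.78), Cd44 (99.8 and 105, then 167 and 169.8 CPM) and Ephb3. The rise of Ephb3 missed the threshold without the first low-dose library (edgeR adjusted p = 0.0682). Of the Wnt pathway 11 of 20 tested genes fell and 6 rose (median -0.32). The ligand gene Wnt3, made by Paneth cells, was at 1.67 and 2.12 and then 0.687 and 0.671 CPM, the receptor gene Fzd7 at 11.7 and 12.7 and then 6.67 and 6.08 CPM, and the target Axin2 at 44.1 and 56.4 and then 34.8 and 33.4 CPM. Of the targets that rose, Ccnd1, the cyclin D1 gene, went from 169 and 179 to 456 and 440.3 CPM (log2 fold change 1.36, SE 0.05, edgeR adjusted p = 1.96e-08) and Apcdd1, a Wnt inhibitor, from 6.30 and 5.81 to 21.5 and 17.6 CPM.

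**Figure D4:**
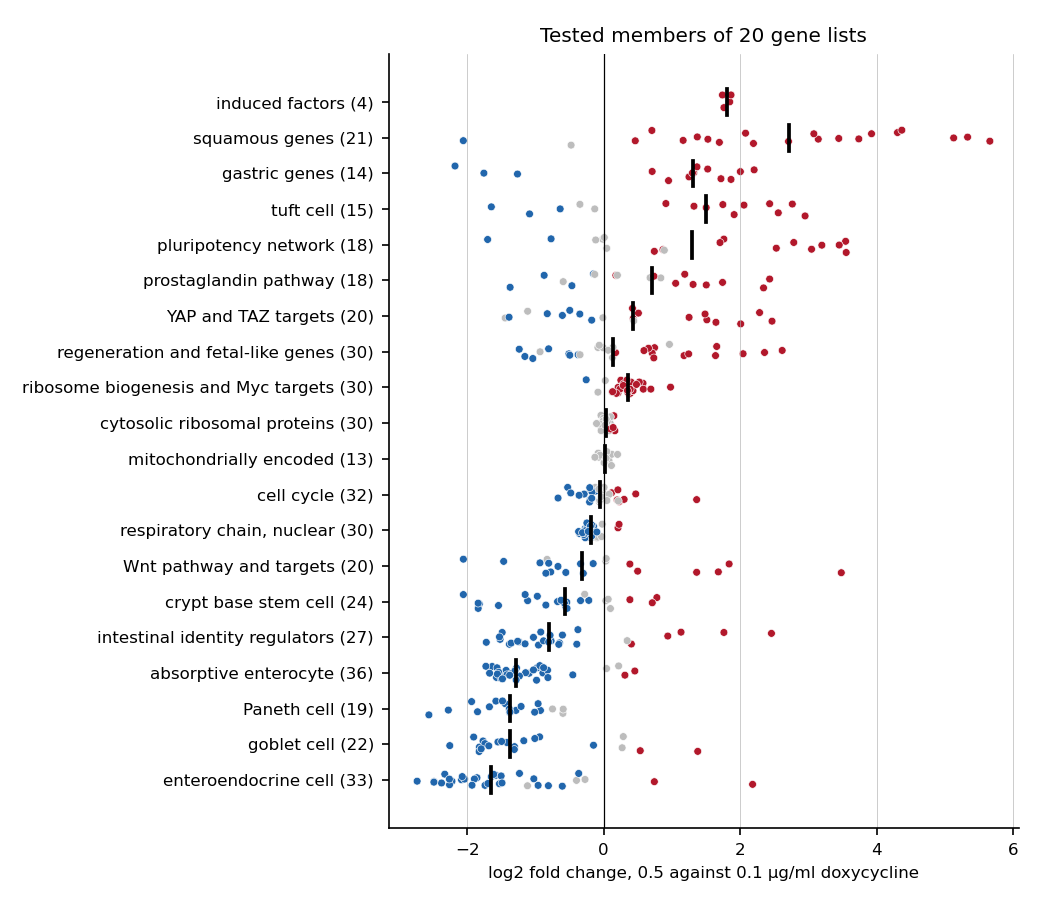
Log2 fold change at 0.5 against 0.1 µg/ml doxycycline of the tested members of 20 gene lists, 1 point a gene, with the number tested in brackets; red points were called higher, blue lower, grey neither, and the black bar is the list's median. Medians run from 2.71 for squamous genes to -1.65 for enteroendocrine genes, with ribosomal protein and mitochondrially encoded genes near 0.

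In the signalling pathways of the crypt, ligands, receptors and targets did not move as one. Of 15 Notch genes 6 rose and 6 fell. The receptor gene Notch2 rose from 52.4 and 49.0 to 134 and 140.3 CPM (log2 fold change 1.43, SE 0.05), and the ligand gene Jag2 from 37.5 and 36.5 to 78.2 and 84.2 CPM, while the ligand genes Dll4 (5.74 and 6.79, then 2.34 and 2.82 CPM) and Dll1 (12.6 and 13.0, then 8.20 and 8.19 CPM) fell. Lfng, which modifies Notch receptors, rose from 13.1 and 13.0 to 33.3 and 34.2 CPM. Of 18 BMP genes 5 rose (27.8%) and 7 fell (38.9%), against 29.8% and 29.1% of all tested genes. Bmp3, a BMP that opposes the others, had the largest fall among the 12 named by size, from 4.79 and 7.75 to 0.802 and 1.304 CPM (log2 fold change -2.52, SE 0.27, edgeR adjusted p = 3.19e-05), from 26.9 and 25.3 CPM in control. Bmp7 fell from 12.9 and 15.5 to 5.09 and 5.06 CPM, whereas the ligand genes Bmp2 and Bmp8b rose by log2 fold changes of 0.90 and 1.54. The target genes Id4, Id1 and Id3 rose by 2.34, 1.00 and 0.70 on the log2 scale, Id4 from 6.62 and 5.65 to 30.3 and 32.0 CPM. Of 24 genes of the EGF family and of MAPK feedback, 10 rose and 5 fell (Areg, Dusp6, Lrig1, Nrg4 and Spred1, of which Nrg4 was not called without any 1 of the 4 doxycycline libraries, edgeR adjusted p from 0.0521 to 0.158). The feedback inhibitor gene Spry4 rose from 7.45 and 7.60 to 31.7 and 32.9 CPM (log2 fold change 2.10, SE 0.07), while Dusp6, the phosphatase that turns off ERK, fell from 22.3 and 24.3 to 13.4 and 12.6 CPM (log2 fold change -0.84, SE 0.12).

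Part of the pluripotency network rose. Of 30 listed genes, which leave out the induced factors, 18 passed the filter, and of these 11 were higher and 2 lower (median log2 fold change 1.299). L1td1, an RNA-binding protein of pluripotent cells, rose from 10.9 and 10.3 to 55.3 and 67.3 CPM (log2 fold change 2.53, SE 0.10, edgeR adjusted p = 5.08e-08). Lin28a and Lin28b, which block let-7 maturation, went from 0.152 and 0.122 to 1.74 and 1.59 CPM and from 0.524 and 0.693 to 3.64 and 4.62 CPM (log2 fold changes 3.56 and 2.79). Sall4, a partner of Oct4, went from 0.262 and 0.163 to 2.41 and 2.78 CPM, and Tdh, the threonine enzyme of mouse embryonic stem cells, from 1.77 and 1.35 to 12.9 and 13.3 CPM. Zfp42, the marker Rex1, reached 0.527 and 0.422 CPM from 0.0552 and 0.0408 CPM. The core gene Nanog had 0 and 1 counts over the libraries of the low and the high dose, and Dnmt3l, Otx2 and Tdgf1 had 0 at both. Nr5a2 fell from 27.9 and 27.5 to 9.03 and 8.09 CPM (log2 fold change -1.70, SE 0.07) and Klf5 from 166 and 151 to 96.5 and 89.3 CPM; both are on the list for their role in embryonic stem cells and are also expressed in the gut epithelium. Of 20 germline genes 6 passed the filter: Piwil2, of the piRNA pathway, rose from 1.92 and 1.90 to 21.5 and 25.2 CPM (log2 fold change 3.61, SE 0.12), Hfm1 and Tdrd1 rose by 1.56 and 1.22 on the log2 scale, and the cohesin gene Rec8 fell by 1.74-fold.

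Chromatin regulators moved both ways, 1 of them at least 2-fold. Of 29 tested, 10 were higher and 4 lower (13 and 4 with RLE size factors), or 34.5% and 13.8% against 29.8% and 29.1% of all tested genes, with a median log2 fold change of 0.06. Tet2, which oxidises methylated cytosine, rose from 52.0 and 43.4 to 98.7 and 112 CPM (log2 fold change 1.14, SE 0.09), and the DNA methyltransferase gene Dnmt3a fell from 44.1 and 45.3 to 23.9 and 25.1 CPM (log2 fold change -0.86, SE 0.05). The Polycomb genes Suz12, Ezh2 and Ezh1 were the other members called lower, at log2 fold changes of -0.27, -0.16 and -0.15. The count of 4 lower members went to 2 without the second low-dose or either high-dose library and with DESeq2, since Ezh1 and Ezh2 then missed the threshold (edgeR adjusted p up to 0.0887 and 0.0755 without one of those libraries), as Ezh1 did without the first low-dose library (edgeR adjusted p = 0.0897).

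Growth genes rose by small amounts. Of 30 genes of ribosome biogenesis and other Myc targets 26 were higher and 1 lower (median log2 fold change 0.35), with none changed 2-fold. Odc1, the rate-limiting enzyme of polyamine synthesis, went from 240.2 and 242 to 476 and 476 CPM (log2 fold change 0.98, SE 0.04, edgeR adjusted p = 3.95e-08) and Srm, spermidine synthase, from 84.4 and 88.6 to 135 and 144 CPM. Hspe1, a mitochondrial chaperonin gene, was the member called lower, with a log2 fold change of -0.25. Of the 30 ribosomal protein genes tested, Rpl27, Rpl8, Rps20 and Rps24 were higher, by at most 1.12-fold, and 0 lower (median 0.03). At an unadjusted p under 0.05 the counts were 7 and 1, with DESeq2 8 and 0, and with upper-quartile scaling 0 and 5, so the direction of these small differences depends on the scaling. The 4 became 2 without the first and 1 without the second high-dose library, and 1 gene was called lower without the second control library. Of the 13 mitochondrially encoded genes edgeR and DESeq2 each called 0, and 1 was at an unadjusted p under 0.05. Their log2 fold changes ran from -0.13 to 0.21, and mt-Nd6 had the smallest edgeR adjusted p, 0.0747. Without the first low-dose library or either high-dose library 1 of them was called. Nuclear genes of the respiratory chain fell slightly, 23 of 30 lower and 2 higher (Atp5d and Ndufa10; median -0.19), with Sdhc from 204 and 202 to 157 and 158 CPM. Glycolysis genes split, 7 higher (31.8%) and 10 lower (45.5%) of 22, against 29.8% and 29.1% of all tested genes. Hk2 and Hk1, the hexokinases that start the pathway, rose by 0.96 and 0.93 on the log2 scale, while Pfkm, the muscle phosphofructokinase, and Pdk1, which shuts off pyruvate entry to mitochondria, fell by 2.10 and 1.65-fold.

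Stress and lipid genes moved in both directions. Of 22 genes of the integrated stress response 14 were higher and 6 lower, though the 14 became 8 with upper-quartile scaling or without the second high-dose library and 9 without the first low-dose library. Nupr1 rose from 50.8 and 57.4 to 118 and 151 CPM (log2 fold change 1.32, SE 0.11), and the serine synthesis gene Psat1 from 267 and 277 to 476 and 470.3 CPM, while the factor gene Atf5 fell from 98.7 and 96.9 to 57.4 and 58.9 CPM. Of 20 genes of the unfolded protein response 10 fell and 1, Calr, was called higher (1.09-fold), though not with upper-quartile scaling or without the second high-dose library (edgeR adjusted p = 0.0968 and 0.121). The falls were led by Ern2, the sensor of mucus-secreting cells (8.62 and 10.7, then 3.99 and 2.90 CPM), with Xbp1 at 189 and 187 and then 134 and 130.2 CPM. Of 24 NRF2 genes, which detoxify and buffer oxidants, 8 rose (33.3%) and 13 fell (54.2%), against 29.8% and 29.1% of all tested genes. At 0.1 µg/ml 15 of the 24 were called higher and 0 lower than control, against 20.8% and 13.8% of all tested genes. Heme oxygenase (Hmox1) went from 13.1 and 13.7 to 31.1 and 31.9 CPM and malic enzyme (Me1) from 176 and 172 to 412 and 364 CPM, whereas the glutathione transferase genes Gsta1 and Gstm1 fell by 2.08 and 2.20-fold. Gsta1 stood at 367 and 414 CPM in control, 708 and 563 at the low and 296 and 315 at the high dose. The metallothionein genes Mt1 (1335 and 1217, then 329 and 386 CPM) and Mt2 (959 and 908, then 239 and 259.6 CPM), outside the lists, fell by log2 fold changes of -1.84 and -1.90. Of 27 genes of cholesterol and fatty acid synthesis 9 rose, none by more than 1.18-fold, and 13 fell, with the desaturase gene Scd1 from 1064 and 1024 to 649 and 626 CPM.

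Proliferation genes moved both ways. Of 32 cell cycle genes 7 were higher (21.9%), 12 lower (37.5%) and 13 not called (median log2 fold change -0.06). The shares over all tested genes were 29.8% higher and 29.1% lower. Fewer members were called higher without the first low-dose library. The D cyclin genes Ccnd1, Ccnd3 and Ccnd2 rose, by 1.36, 0.47 and 0.30 on the log2 scale, and their partner Cdk4 fell from 226 and 236 to 165 and 156 CPM (log2 fold change -0.53, SE 0.05). Ccnb2, a mitotic cyclin, fell from 51.0 and 53.8 to 33.6 and 32.3 CPM, and Mki67, the proliferation marker, from 594 and 617 to 533 and 528 CPM (log2 fold change -0.19, SE 0.04). Among the inhibitors, Cdkn1a (p21) rose from 226 and 230.4 to 427 and 412 CPM (log2 fold change 0.88, SE 0.05) and Cdkn1c rose by 0.61, while Cdkn2c and Cdkn1b fell by 2.52 and 1.53-fold. Of 26 p53 targets 12 rose and 8 fell, with Plk2 from 26.5 and 28.2 to 96.9 and 99.4 CPM and the death receptor gene Fas from 3.01 and 2.92 to 1.05 and 0.978 CPM. Of 31 cell death genes 10 rose (32.3%) and 13 fell (41.9%), against the same shares over all tested genes. The caspase genes Casp6 and Casp1 fell from 39.2 and 36.3 to 14.9 and 14.3 CPM and from 54.2 and 53.4 to 26.0 and 26.0 CPM.

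Immune genes of the epithelium were mixed. Antigen presentation genes were lower in 13 and higher in 4 of 19 (median log2 fold change -0.50): the class I-like genes H2-T3 and H2-Q2, members of a family with near-identical copies, fell by 2.98 and 2.66-fold, and Tapbp, the tapasin gene, rose from 48.3 and 50.01 to 96.0 and 91.1 CPM. The other members called higher were H2-D1, with a log2 fold change of 0.27, and H2-DMb1 and H2-Eb1, both under 0.6 CPM in each library. The call of H2-DMb1 was lost without the first low-dose library (edgeR adjusted p = 0.0534), and that of H2-Eb1 without the second low-dose or the first high-dose library (edgeR adjusted p = 0.0710 and 0.0691), and the count of 4 became 2 without the first high-dose library. Of 24 interferon-stimulated genes 4 rose (16.7%) and 8 fell (33.3%), against 29.8% and 29.1% of all tested genes. The count of those that fell was smaller without the second high-dose or the first low-dose library. Oas2, an antiviral sensor, rose from 3.06 and 4.14 to 23.6 and 24.1 CPM (log2 fold change 2.75, SE 0.15), with Bst2 and Mx1 at 1.53 and 1.57 and Gbp3 at under 0.5 CPM in each library, while Irgm1 fell from 12.04 and 11.5 to 6.002 and 4.30 CPM. The call of Gbp3 was lost without the second low-dose or the first high-dose library (edgeR adjusted p = 0.0703 and 0.0839). Of 24 inflammation genes 8 rose (33.3%) and 7 fell (29.2%), near the 29.8% and 29.1% of all tested genes. The neutrophil chemokine gene Cxcl5 rose from 3.77 and 3.63 to 26.6 and 26.0 CPM (log2 fold change 2.83, SE 0.12), nitric oxide synthase (Nos2) from 23.6 and 25.5 to 70.2 and 70.8 CPM, and the acute-phase gene Saa1 from 0.786 and 0.693 to 5.02 and 6.06 CPM. Ccl25, the chemokine that draws T cells to the small intestine, fell from 168 and 139 to 58.4 and 60.2 CPM (log2 fold change -1.37, SE 0.08).

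Junction genes moved both ways. Of 27 genes 16 rose and 8 fell (median 0.23). Desmoplakin (Dsp), the anchor of desmosomes, rose from 574 and 589 to 1467 and 1366 CPM (log2 fold change 1.28, SE 0.05, edgeR adjusted p = 2.27e-08), and Cldn4 from 333 and 365 to 672 and 714 CPM. The intestinal claudin genes Cldn2 and Cldn15, which form pores for ions, fell from 130.0 and 135 to 50.2 and 47.3 CPM (log2 fold change -1.44) and from 258 and 244 to 118 and 104 CPM (log2 fold change -1.18). Genes of mesenchymal transition split evenly, with 5 of 11 higher and 5 lower. Vim, the intermediate filament of mesenchyme, fell from 1.503 and 1.81 to 0.229 and 0.345 CPM (log2 fold change -2.49, SE 0.31), and Mmp14 and Tgfbi fell by log2 fold changes of -1.60 and -1.66. Fn1 (fibronectin) rose from 119.9 and 134 to 239 and 203 CPM (log2 fold change 0.80, edgeR adjusted p = 0.000613), which DESeq2 did not call (adjusted p = 0.248); in control it stood at 0.628 and 1.82 CPM. Itgb3, Cdh2 and Itga5 were also called higher, each under 2 CPM in every library. Cdh2 was at 0.567 and 0.439 CPM in control, 0.152 and 0.102 at the low and 0.596 and 0.422 at the high dose. Itga5 was at 1.13 and 0.838, 0.441 and 0.591 and 1.28 and 1.19 CPM in the same order. Both were lowest at the low dose, while Itgb3 had 0 and 0.0199 CPM in control. Tgfb1 was called lower, but not without any 1 of the 4 doxycycline libraries (edgeR adjusted p from 0.0659 to 0.0977).

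Markers of cells that do not belong to the epithelium were summed over each list, since some of them moved with the dose. The summed level of 17 neuron and glia genes went from 49.9 and 42.3 to 234 and 265 CPM, with 7 of 12 tested members higher and 3 lower. Most of that sum came from Nefl, a neurofilament gene (30.3 and 24.5, then 153 and 177 CPM), and Stmn2, a tubulin regulator of axons (3.79 and 2.45, then 47.9 and 49.5 CPM), while Sox10, which defines enteric glia, had 0 counts at the low and 1 at the high dose over both libraries, and Ret and Snap25 fell by log2 fold changes of -1.71 and -1.69. Without the second low-dose or the second high-dose library the edgeR adjusted p of Snap25 was 0.0733 and 0.122. The 16 muscle genes went from 42.2 and 33.7 to 92.4 and 93.8 CPM (7 of 10 higher and Acta1 lower; without the first low-dose library or either high-dose library the edgeR adjusted p of Acta1 was 0.126 to 0.307), mainly through Myo18b and the potassium channel gene Kcnj12 (5.19 and 4.59, then 38.2 and 41.6 CPM), with Actc1 at 0 and Des at 3 and 1 counts. The 10 endothelial genes went from 3.32 and 3.18 to 13.1 and 13.3 CPM (Eng, Flt1, Tek and Tie1 of 5 tested higher and 0 lower, a count of 0 also at an unadjusted p under 0.05 and with DESeq2), with Eng from 0.814 and 0.938 to 7.54 and 8.11 CPM but Cdh5, Cldn5 and Emcn at 0. The 16 immune genes went from 7.09 and 7.44 to 15.6 and 14.9 CPM (Cd68 and Ptprc of 3 tested higher, Itgam lower), most of it Cd68, a lysosomal protein (4.44 and 5.06, then 13.7 and 13.2 CPM), with Adgre1, Cd3e and Tyrobp at 0. The 14 fibroblast genes went from 3.08 and 3.12 to 6.87 and 7.77 CPM (Col1a1, Dcn and Cspg4 of 5 tested higher, Pdgfrb lower), with Col1a1 from 1.54 and 1.67 to 3.78 and 4.07 CPM and Col3a1 at 0. Fibroblast genes below the filter included Thy1 with 2 and then 31 counts over the libraries of a dose, Pdgfra with 6 and 21, and Lum with 0 and 16. Of the others, Postn had 19 and then 4 counts, Col1a2 6 and 0, Acta2 3 and 2, Col6a1 3 and 4 and Col6a2 2 and 5. Genes with no counts in all 4 doxycycline libraries were 1 of 17 neuron and glia, 1 of 16 muscle, 3 of 10 endothelial, 4 of 16 immune and 1 of 14 fibroblast genes. The part of such cells in the results above was not tested. Of the genes of trophoblast and extraembryonic endoderm 4 of 11 rose (Elf5, Eomes, Lamb1 and Tfap2c) and 5 fell (Cdx2, Col4a1, Col4a2, Gata6 and Ttr). Elf5, a factor of trophoblast and of glandular epithelium, went from 6.34 and 5.55 to 38.8 and 40.5 CPM, and the laminin gene Lamb1 from 1.24 and 0.754 to 8.55 and 10.6 CPM. Ttr, which is also made in enteroendocrine cells, fell from 11.6 and 11.99 to 1.92 and 2.93 CPM.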

How the data were processed

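Poly-A RNA of 6 libraries was read as paired ends of 100 bases, and the authors deposited 1 table of expected counts and 1 of TPM per library. Per the submitters' processing notes the reads were handled with RSEM 1.3.3, STAR 2.7.3a, Trim Galore and FastQC, in an order not stated; the notes name the builds GRCm39 and mm10 without a role, so gene positions are not given. Estimated counts as deposited were rounded to whole numbers (10.8% were not whole). Of 55416 rows 52083 (94.0%) had a symbol. Library totals, in units of 1e+06 counts, were 72.5 and 48.6 for the low dose, 45.3 and 53.8 for the high dose, and 48.3 and 48.4 for control, so a value of 3 counts corresponds to 0.0414 to 0.0687 CPM. Intervals and SEs cover the spread between libraries of a group only.

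Genes were filtered with filterByExpr and scaled by TMM (factors 0.964 to 1.04), and edgeR 4.0.16 in R 4.3.3 was fitted to all 6 libraries with a mean per group, which leaves 3 residual degrees of freedom. The test was two-sided, with Benjamini-Hochberg adjustment over 16975 genes. A permutation of 2 against 2 libraries cannot go below p = 0.333 and was not used. The comparison of the low dose with control comes from the same fit. Alternatives were DESeq2 1.42.0, limma 3.58.1 on the deposited TPM (on log2 of TPM plus 1 or 0.1), other scalings and filters, equal depth, a threshold of 1.5-fold, a replicate term and leaving out each library.

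The comparison and 44 gene lists (1032 entries, 883 tested) were chosen with earlier results of these data known. Named are the factors, the 12 largest called rises and falls with at least 5 CPM at 1 dose, the 6 largest gains and losses in CPM, and in each list the 3 largest called changes each way with at least 1 CPM, or all where 5 or fewer were called; a few genes within this rule are not reported here. Chosen after their values were seen were Anxa1, Apoa1, Apob, Avil, Axin2, Casp1, Cdx1, Cldn18, Defa24, Dsc3, Dsg3, Fras1, Gm29216, Hnf4a, Krt13, Krt14, Krt16, Krt6a, Krt6b, L1td1, Lats2, Lgals7, Lin28b, Ly6a, Ly6g6c, Lyz1, Mki67, Mt2, Nefl, Neurog3, Olfm4, Pigr, Pla2g4a, Plcg2, Pou2f3, Sis, Tdh, Tff1, Tff3, Vdr and Zfp42, with the kallikreins. Promoter windows came from RefSeq (GRCm38.p6), and gene types from GENCODE M21 by identifier.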

Additional observations from a re-analysis of the deposited data

How the results depend on the processing

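The counts of genes past the threshold moved most with the measure of change. Against 5060 higher and 4942 lower genes, a test for changes beyond 1.5-fold (glmTreat) gave 1928 and 1547, which its stricter null hypothesis sets. limma on TPM gave 2894 higher genes with a pseudocount of 0.1 and 2919 with 1, over 12737 genes tested. At least 2-fold, against 1801 higher and 1474 lower, it gave 790 and 956 with 0.1, 671 and 582 with 1, and 747 and 569 with 1 and no filter; a pseudocount shrinks the fold of low genes by construction. Over both directions the other alternatives stayed within 1.5 times: DESeq2 called 4686 higher and 3874 lower, and upper-quartile scaling 4507 and 5587. Leaving out 1 library gave 4143 to 5413 higher and 3976 to 5105 lower genes, and 1615 to 1953 and 1212 to 1486 at least 2-fold; the dose left with 1 library is then assumed to vary like the other groups. The replicate block gave 4869 higher and 4738 lower genes, and 1776 and 1425 at least 2-fold. The numbers pair nothing by the labels: deviations of same-numbered libraries from their group means correlated at 0.15 between the doses, -0.12 between control and the low dose and 0.19 between control and the high dose, over 10587 genes. None of the 317 genes examined by name had a call reversed under the 17 alternatives, and 81 changed call under at least 1 of them, 26 of these under the 13 edgeR and DESeq2 alternatives without a fold threshold. Over the same genes the median log2 fold change differed from that with TMM by 0.03 with RLE size factors and by -0.05 with upper-quartile scaling. Depth limits genes with few counts: Trp63, Nanog and Krt5 had at most 16 counts over the libraries of a dose, did not pass the filter and were not tested.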

Other observations

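The kallikrein family, serine proteases of which many are made in skin, was looked at after Klk11 was seen among the largest rises. Of 26 members present 9 were tested, and Klk9, Klk10, Klk11, Klk12, Klk13 and Klk14 were called higher at 0.5 µg/ml. Klk10 was at 0.0608 and 0.0199 CPM in control, 3.92 and 2.94 at the low and 32.0 and 33.4 at the high dose (log2 fold change 3.23, SE 0.12, edgeR adjusted p = 3.48e-08). Klk12 went from 0.579 and 0.775 to 9.71 and 11.3 CPM (log2 fold change 3.98, SE 0.19). Klk13, Klk14 and Klk9 stayed under 1 CPM in each library. Klk1, the tissue kallikrein, fell from 4.52 and 5.55 to 2.57 and 2.42 CPM (log2 fold change -1.01, SE 0.14). Klk6 and Klk1b22 were the tested members not called, with log2 fold changes of 0.90 (SE 0.45) and -0.02 (SE 0.23). Members of the family that passed the filter had to be detected in some group, so these counts are a description.

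Long intergenic non-coding RNAs were called at least 2-fold higher more often than protein-coding genes, at 21.6% of 476 against 10.6% of 13831 tested, and at least 2-fold lower at 11.1% against 8.80%. The median level at the low dose was 0.479 CPM for these RNAs and 23.3 CPM for protein-coding genes, and the part of that difference in level was not tested. Miat is the member of this class with the largest rise among those with at least 5 CPM at 1 dose. Antisense RNAs, at 10.3% of 603, had about the share of protein-coding genes; no source used here says whether counting was by strand. A deep fall outside the rule for named genes was that of Fras1, a basement membrane protein gene, from 4.06 and 4.04 to 0.344 and 0.460 CPM (log2 fold change -3.31, SE 0.17, edgeR adjusted p = 1.97e-07), chosen after its values were seen.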
